A study of Rattus norvegicus with 24 samples.

Results

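Brain endothelial genes were followed at postnatal day 10 (PN10) in whole hypothalamus from Sprague Dawley rat pups. The genes were chosen by name: the cadherin Cdh5, the adhesion molecule Pecam1, the tight junction claudin Cldn5, the efflux pumps Abcb1a and Abcg2, the growth factor receptors Flt1, Kdr and Tek, the thrombin receptor Thbd and the membrane protein Itm2a. Of these 10 genes, 9 had a row in each of the deposited count tables, which list 13841 gene names in common. Kdr, the main signalling receptor for VEGF, was not analysed here.

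The pups were offspring of dams fed a control diet (CON, 12% of digestible energy from lipids) or a high fat diet (HFD, 43%), and are called CON-O and HFD-O. Each dam ate her diet from before mating until PN10 and kept her own pups, so the diet reached the offspring before and after birth. RNA-sequencing gave 24 libraries, 6 for each combination of sex and maternal diet, and a library is named below by its group and the number in its label. There were fewer litters than libraries for each diet, with 6 CON litters behind 12 CON-O libraries, so some pups shared a dam, and the sources do not tell which. The p-values treat all libraries as independent. For that reason those of the diet difference over both sexes may be too small. Those that set males against females may instead be too large, where a male and a female shared a dam. Library totals ran from 6132112 to 7994399 counts.

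The endothelium lines every vessel of the brain. In the brain its cells are sealed to one another by tight junctions built of claudins and adherens junctions built of VE-cadherin, carry pumps that return drugs and metabolites to the blood, and are supported by pericytes, astrocytes and Wnt ligands from neural cells. In whole tissue these cells are a small part of the RNA. A difference in a marker may therefore come from fewer cells of the type or from less RNA per cell, and the 2 cannot be told apart here.

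Promoter sequence was at hand for 6 of the 10 genes, and it is shown for the 4 genes of the 2 pairs that varied together across libraries (adjusted p under 0.05 with Pearson r) and had both promoters at hand, Flt1 with Abcb1a and Cldn5 with Itm2a. Each line gives the 250 bases before the start listed for the gene in the RefSeq promoter table, 5′ to 3′ on the strand of the gene. For Flt1 and Abcb1a that start lies inside the full span of the gene in the annotation, so other transcripts of these genes begin further upstream. Capitals mark the GC box GGGCGG and the ETS core AGGAA or CGGAA, on either strand.
Cldn5 (GRCr8, chr11:95718599-95718848, minus strand): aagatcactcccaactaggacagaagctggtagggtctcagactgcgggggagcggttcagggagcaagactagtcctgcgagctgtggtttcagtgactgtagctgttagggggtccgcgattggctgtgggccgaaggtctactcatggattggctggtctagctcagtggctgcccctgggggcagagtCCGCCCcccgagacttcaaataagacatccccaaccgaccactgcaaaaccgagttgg
Itm2a (GRCr8, chrX:76565145-76565394, minus strand): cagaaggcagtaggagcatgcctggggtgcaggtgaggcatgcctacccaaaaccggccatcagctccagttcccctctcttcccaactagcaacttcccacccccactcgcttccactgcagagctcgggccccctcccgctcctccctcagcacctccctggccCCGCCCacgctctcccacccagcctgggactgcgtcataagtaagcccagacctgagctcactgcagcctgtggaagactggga
Flt1 (GRCr8, chr12:12333180-12333429, plus strand): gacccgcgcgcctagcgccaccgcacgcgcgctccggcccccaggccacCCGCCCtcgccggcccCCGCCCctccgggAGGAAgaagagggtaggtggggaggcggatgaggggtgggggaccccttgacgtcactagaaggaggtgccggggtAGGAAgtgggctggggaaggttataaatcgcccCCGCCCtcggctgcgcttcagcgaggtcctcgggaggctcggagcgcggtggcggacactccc
Abcb1a (GRCr8, chr4:26397649-26397898, minus strand): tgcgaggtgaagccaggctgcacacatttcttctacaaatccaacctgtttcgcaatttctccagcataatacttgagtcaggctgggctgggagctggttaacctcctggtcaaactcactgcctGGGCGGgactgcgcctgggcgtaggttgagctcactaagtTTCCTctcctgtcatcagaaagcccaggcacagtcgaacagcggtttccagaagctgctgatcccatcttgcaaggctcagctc

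The GC box, which binds factors of the Sp family, occurred 3 times before Flt1 and 1 time before each of Cldn5, Itm2a and Abcb1a, and 30.5% of 33469 rat promoter windows of this length held it. The ETS core, read by factors that endothelial cells use in their specification, occurred 2 times before Flt1 and 1 time before Abcb1a, and 72.2% of all windows held it. The letters of a SOX site (ACAAT, in 30% of windows) and a TCF/LEF site (CTTTGA, in 13.9%) were not in these 4 windows, and TATAAA (12.9%) was in that of Flt1. The windows of the 4 genes held from 54.0% to 73.2% G and C, against a median of 51.2% over all windows. A match is a description of the letters only.

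Levels are given as CPM, the count of a gene scaled to the size of its library after TMM normalization. CPM is not corrected for transcript length, so levels are compared between groups for 1 gene and not between genes. Differences between the diets are log2 fold changes of HFD-O over CON-O from edgeR's quasi-likelihood test, with p-values adjusted by Benjamini-Hochberg over all genes tested.

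Cdh5 encodes VE-cadherin, the adherens junction protein that defines endothelium. In female CON-O its CPM ran from 12.2 to 19.1 with a median of 14.8, and in female HFD-O from 17.0 to 23.4 with a median of 20.3. Of the 6 female HFD-O libraries 5 exceeded the highest CON-O library, and the groups overlapped through HFD-O 22. In males CON-O ran from 9.58 to 21.5 (median 17.8) and HFD-O from 13.6 to 25.6 (median 19.8), and the groups overlapped over most of their range. The log2 fold change was 0.41 in females (standard error 0.11, adjusted p = 0.303), 0.26 in males (0.17, adjusted p = 0.957) and 0.33 over both sexes (0.11, adjusted p = 0.191). The test called Cdh5 in none of the 3 fits.

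Pecam1 (CD31), an adhesion molecule of endothelial contacts that platelets and leukocytes also carry, had estimates near 0. Its CPM was 7.89 to 11.7 in female CON-O (median 8.24) and 7.02 to 13.5 in female HFD-O (median 7.34). In the female HFD-O group 4 libraries lay below the lowest CON-O library while HFD-O 20 lay above the highest. The male values were 5.45 to 13.0 (median 7.70) in CON-O and 7.24 to 11.4 (median 8.80) in HFD-O. The log2 fold change was -0.05 in females (standard error 0.17, adjusted p = 0.967), 0.13 in males (0.19, adjusted p = 0.981) and 0.04 over both sexes (0.13, adjusted p = 0.930). Each was smaller than its own error.

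Cldn5, the most abundant claudin of the blood-brain barrier, ran from 96.4 to 124.7 CPM in female CON-O (median 116.0) and from 107.5 to 145.4 in female HFD-O (median 127.3). Of the 6 female HFD-O libraries 4 lay above every CON-O library and the other two, HFD-O 14 and HFD-O 24, lay below the CON-O median. In males CON-O 11 stood alone at 144.2 CPM, the other CON-O libraries being between 99.4 and 110.4, and all 6 HFD-O libraries (109.4 to 133.4) exceeded the CON-O median of 106.5. The log2 fold change was 0.18 in females (standard error 0.09, adjusted p = 0.705), 0.12 in males (0.08, adjusted p = 0.957) and 0.15 over both sexes (0.06, adjusted p = 0.316).

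Abcb1a, the P-glycoprotein pump of brain capillaries in rodents, ran from 12.0 to 17.1 CPM in female CON-O (median 13.9) and from 15.4 to 21.8 in female HFD-O (median 19.0). Of the female HFD-O libraries 5 of 6 exceeded every CON-O library. In males all 6 HFD-O libraries, from 16.6 to 20.1 CPM, exceeded the CON-O median of 16.2, but within the CON-O range of 9.43 to 23.4. The log2 fold change was 0.40 in females (standard error 0.11, adjusted p = 0.279), 0.17 in males (0.15, adjusted p = 0.967) and 0.28 over both sexes (0.10, adjusted p = 0.214). Its related neighbour Abcb1b was counted at 7 to 28 reads per library, and since the counting is not described, any reads shared between the 2 genes could have been split. Abcb1a also overlaps Rundc3b in the RefSeq annotation of GRCr8, and whether the counting used strand is not given in the sources used here.

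Abcg2, the breast cancer resistance protein, another efflux pump of the capillary wall, was the only gene of the 9 with a lower estimate in both sexes. Female CON-O ran from 6.12 to 13.0 CPM (median 8.62) and female HFD-O from 5.66 to 8.44 (median 7.64). No female HFD-O library exceeded the CON-O median, and 5 of the 6 stayed within the CON-O range. In males CON-O ran from 5.36 to 10.6 (median 8.07) and HFD-O from 3.82 to 11.0 (median 6.09), where HFD-O 21 was the highest of the 12. The log2 fold change was -0.21 in females (standard error 0.17, adjusted p = 0.816), -0.25 in males (0.22, adjusted p = 0.963) and -0.23 over both sexes (0.14, adjusted p = 0.522).

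Flt1 (VEGFR1) binds VEGF with high affinity and signals weakly, and Tek (Tie2) is the receptor of the angiopoietins. Flt1 ran from 16.7 to 28.6 CPM in female CON-O (median 24.6), 22.5 to 33.8 in female HFD-O (29.4), 15.5 to 32.3 in male CON-O (27.9) and 23.2 to 34.0 in male HFD-O (30.3). The groups overlapped in each sex, and the log2 fold change was 0.26 in females (standard error 0.12, adjusted p = 0.704), 0.16 in males (0.14, adjusted p = 0.967) and 0.21 over both sexes (0.10, adjusted p = 0.384). Tek varied little, with group medians of 22.5 (CON-O) and 24.3 (HFD-O) CPM in females and 22.5 and 24.6 CPM in males. Its log2 fold change was 0.14 in females (standard error 0.09), 0.07 in males (0.10) and 0.10 over both sexes (0.07, adjusted p = 0.545).

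Thbd encodes thrombomodulin, the surface receptor that turns thrombin from clotting to the activation of protein C. It had the largest fold change and the widest spread of the 9 genes. Female CON-O ran from 3.06 to 6.71 CPM (median 4.13) and female HFD-O from 5.54 to 16.5 (median 10.4). Every female HFD-O library exceeded the CON-O median and 4 exceeded the highest CON-O library, while HFD-O 16 and HFD-O 20 lay inside the CON-O range. In males CON-O ran from 3.50 to 12.8 (median 5.46) and HFD-O from 3.97 to 21.8 (median 6.68). The highest male CON-O library was CON-O 1, and 1 male HFD-O library, HFD-O 23, lay above it. The log2 fold change was 1.15 in females (standard error 0.27, adjusted p = 0.234), 0.57 in males (0.41, adjusted p = 0.957) and 0.86 over both sexes (0.27, adjusted p = 0.178). Without HFD-O 23 the male value was 0.10.

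The calls for Thbd in females differed between tools. The likelihood ratio test of edgeR gave an adjusted p of 0.0164 and DESeq2 0.0274, while the quasi-likelihood test and limma-voom made no call. The likelihood ratio call was lost without CON-O 2 (adjusted p = 0.0773), CON-O 6 (0.0631), CON-O 12 (0.0518), HFD-O 14 (0.0808) or HFD-O 18 (0.110), and was kept without any of the other 7 female libraries. Leaving out 1 library also brought other genes past the likelihood ratio test. Without CON-O 12 they were Cdh5 (adjusted p = 0.0387), Itm2a (0.00794) and Abcb1a (0.0467), without HFD-O 22 Abcb1a (0.0456) and without HFD-O 24 Itm2a (0.04998). The study called Thbd with its own edgeR test at an adjusted p under 0.05, where the quasi-likelihood test here did not. Its call came from these female libraries, so the female direction of Thbd is not independent evidence.

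Itm2a, a membrane protein enriched in brain endothelium, was the most even of the genes. Female CON-O ran from 89.1 to 119.9 CPM (median 99.4) and female HFD-O from 108.7 to 125.7 (median 119.4). All 6 female HFD-O values exceeded the CON-O median, and CON-O 12 was the only female CON-O library within their range. In males CON-O 11 stood at 129.2 CPM, above every HFD-O library (97.0 to 120.4), and the other 5 CON-O libraries did not exceed 99.9. The log2 fold change was 0.24 in females (standard error 0.06, adjusted p = 0.244), 0.12 in males (0.08, adjusted p = 0.957) and 0.18 over both sexes (0.05, adjusted p = 0.144). Without male CON-O 11 the value over both sexes was 0.22 and passed the test (adjusted p = 0.0275). That fit called 31 of 11665 genes, against 22 of 11630 with all libraries. No other left-out library brought any of the 9 genes past this test over both sexes.

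**Figure D1:**
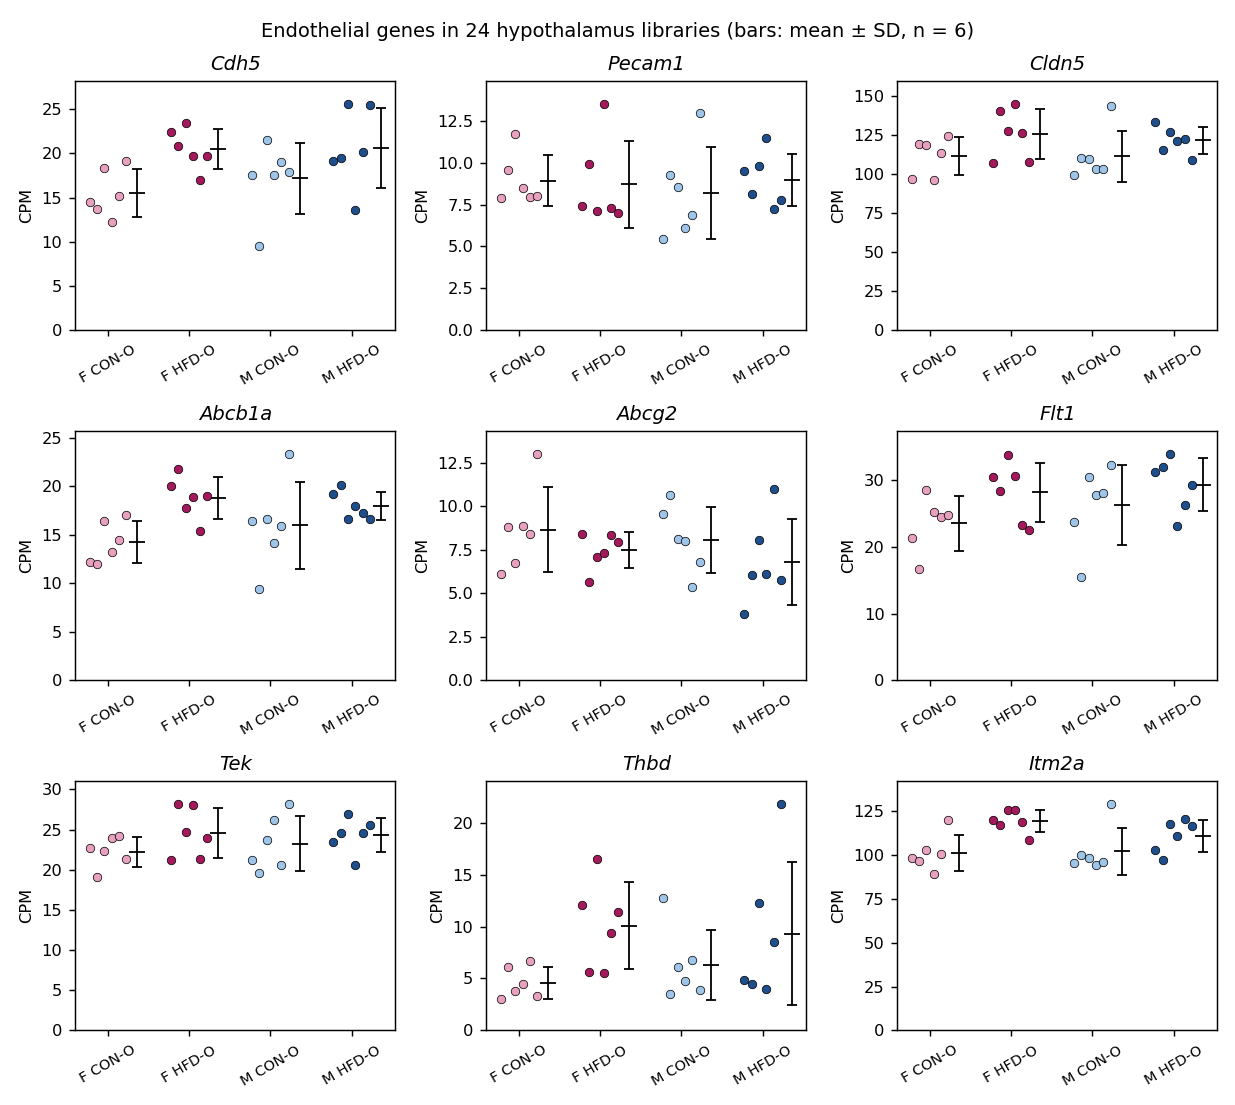
CPM (vertical axes, from 0) of the 9 genes in each of the 24 libraries, by sex (F, M) and maternal diet, with libraries in label order within a group and bars for mean ± SD (n = 6). Cdh5, Abcb1a and Itm2a stand higher in most female HFD-O libraries, Thbd spreads from 3.06 to 21.8 CPM, and male CON-O 11 is set apart in Itm2a and Cldn5.

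Counted over the genes, 7 of 9 had a positive log2 fold change in female HFD-O, where 49.4% of the 11409 genes tested did. In males the count was 8 of 9 against 49.6% of 11476 genes, and over both sexes 8 of 9 against 49% of 11630 genes. The median log2 fold change of the 9 genes was 0.24 in females, 0.13 in males and 0.18 over both sexes, where the median of all genes tested lay within 0.01 of 0. Without male CON-O 11 the male median was 0.22. Some of these genes vary together across libraries, so 9 genes are not 9 separate observations. They were chosen with earlier results of these data known, and Thbd is among the changed female genes of the study. The share over all genes is therefore not a neutral background for these counts or for the p-value counts below.

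An unadjusted p under 0.05 with a higher level in HFD-O was reached by 4 of 9 genes in females (Thbd, Itm2a, Abcb1a and Cdh5), against 4.51% of all genes. In males 0 of 9 reached it, against 2.76%. Without CON-O 11 3 of 9 did (Itm2a, Cldn5 and Abcb1a, all higher in HFD-O, 0 called), against 459 of 11531 genes. Over both sexes it was 6 of 9 (the same 4 with Cldn5 and Flt1), against 7.2%. After adjustment 0 of 9 were called in any of the 3 fits, where 0% of genes were called in females, 0% in males and 0.189% over both sexes. In females the quasi-likelihood test called 0 of 11409 genes, 809 genes having an unadjusted p under 0.05. The study, with edgeR, listed changed genes in each sex at an adjusted p under 0.05, and it does not name the type of test. Calls by the other tools were 50 with the likelihood ratio test, 20 with DESeq2 and 0 with limma-voom. With 1 female library left out, the count of the likelihood ratio test ran from 0 (without HFD-O 14) to 92 (without CON-O 4). In males the quasi-likelihood test, the likelihood ratio test and limma-voom called 0 of 11476 genes, DESeq2 called 1, and 566 genes had an unadjusted p under 0.05. Over both sexes 22 genes were called by the quasi-likelihood test, 93 by the likelihood ratio test, 93 by DESeq2 and 18 by limma-voom. With consecutive libraries as a random effect limma-voom called 1 gene in place of 18. In that fit 5 of the 9 genes had an unadjusted p under 0.05, all higher in HFD-O, against 513 of 11630 genes. Flt1 was then at 0.0567. Adjusted p in that fit was 0.430 for Itm2a, 0.517 for Cdh5 and 0.555 for Thbd, and 0 of 9 were called.

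**Figure D2:**
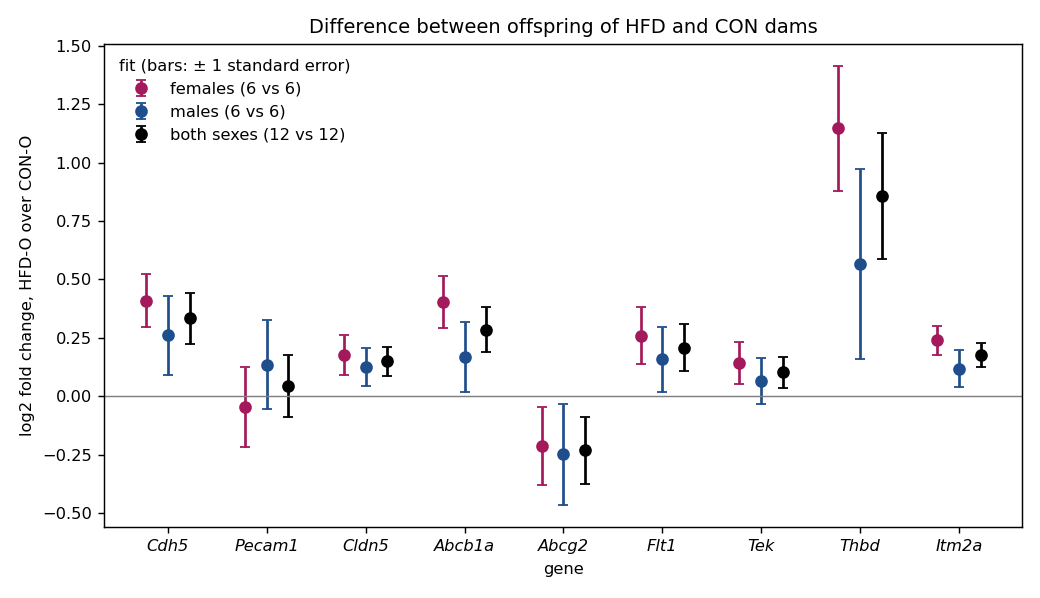
Log2 fold change of HFD-O over CON-O (vertical axis) for each gene in females, in males and over both sexes, with bars of 1 standard error. Thbd is highest at 1.15 in females with an error of 0.27, Abcg2 lies below 0 in all 3 fits, and Pecam1 lies near 0.

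The change with diet did not differ detectably between the sexes. The interaction of diet and sex called 0 of 11630 genes (0%, with 178 genes at an unadjusted p under 0.05 and 0 called by the likelihood ratio test, DESeq2 or limma-voom), and every one of the 9 genes had an adjusted p of 1.00. With consecutive libraries as a random effect, limma-voom put 427 genes at an unadjusted p under 0.05 for the interaction, against 185 without it. That fit called 0 genes, and 0 of the 9 had an unadjusted p under 0.05. The widest interaction estimate was that of Thbd, at -0.58 for males minus females with a standard error of 0.54. Between the sexes themselves 0.0344% of genes were called, and the differences of the 9 genes ran from -0.12 (Abcg2, standard error 0.14) to 0.19 (Thbd, 0.27), males minus females, with 0 of 9 at an unadjusted p under 0.05.

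Other genes of the vessel wall were counted from lists of textbook markers, drawn up with earlier results of these data known. For these lists too, the shares over all 11630 genes are 49% higher in HFD-O, and 7.2% higher with an unadjusted p under 0.05. Given how the lists were drawn up, those shares are not a neutral background. Of 25 further endothelial genes 21 were higher in HFD-O over both sexes, with a median log2 fold change of 0.15, and 8 had an unadjusted p under 0.05, all 8 higher. Emcn (endomucin, of capillary and venous endothelium) had 0.42 (standard error 0.12, adjusted p = 0.135), Vwf (von Willebrand factor) 0.30 (0.10, adjusted p = 0.191) and Clec14a 0.28 (0.10, adjusted p = 0.214). None of the 25 was called. In the arterial list 4 of 9 genes were higher (median -0.05) and 1 was called. That gene was Cxcl12, a chemokine that arterial endothelium shares with meningeal and perivascular cells, which rose by 0.35 (standard error 0.07, adjusted p = 0.0376). With consecutive libraries as a random effect in limma-voom its value was 0.36 and the call was lost (adjusted p = 0.187). Mgp, also in the leptomeningeal list, had 0.96 (0.26) and Stmn2, which neurons express far more widely, -0.05 (0.05). In the venous list 3 of 4 genes were higher, 0 were called, and the values were 0.28 for Icam1 (standard error 0.15), 0.10 for Vcam1 (0.05) and -0.07 for Nr2f2 (0.05).

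The barrier's own machinery was counted next. Of 15 genes in the junction list 13 were higher (median 0.11, 4 at an unadjusted p under 0.05, 0 called). The list also holds Cav1 and Plvap, which are not junction proteins. The smallest p-values were those of the caveolar protein Cav1 with 0.23 (standard error 0.06, adjusted p = 0.0981), the adhesion molecule Jam3 with 0.13 (0.05) and Cldn1 with 0.49 (0.23). Of 17 transporters 11 were higher (median 0.09, 7 at an unadjusted p under 0.05, 0 called). The lactate and ketone carrier Slc16a1 had 0.17 (standard error 0.05, adjusted p = 0.135), the transferrin receptor Tfrc 0.21 (0.06) and the organic anion carrier Slco2b1 0.19 (0.07). The Wnt genes that build the barrier stood nearer to 0, with 8 of 14 higher, a median of 0.04 and 0 at an unadjusted p under 0.05, the norrin ligand Ndp being at 0.15 (0.10), beta-catenin Ctnnb1 at -0.03 (0.02) and the receptor Fzd6 at 0.15 (0.13).

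The ligands of the receptors Flt1 and Tek belong to a list of 15 tested VEGF and angiopoietin genes, of which 9 were higher with a median of 0.02, 2 had an unadjusted p under 0.05 and 0 were called. Aplnr, the apelin receptor, had 0.33 (standard error 0.09, adjusted p = 0.130), Angpt2, the angiopoietin that mostly opposes Tek, 0.47 (0.14, adjusted p = 0.156) and Angptl4 0.12 (0.07). Among the partners of Thbd in coagulation 8 of 9 were higher (median 0.05, 3 at an unadjusted p under 0.05, 0 called). Pros1, protein S, which assists activated protein C, had 0.37 (standard error 0.09, adjusted p = 0.0919), the tissue factor inhibitor Tfpi 0.14 (0.06) and the plasminogen activator Plat 0.13 (0.06). Pericyte and smooth muscle genes were higher in 10 of 13 (median 0.12, 2 at an unadjusted p under 0.05, 0 called), with Vtn at 0.33 (standard error 0.10), Des at 0.50 (0.17) and Anpep at 0.33 (0.17).

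Markers of the leptomeninges, red cells and border macrophages had higher medians than any list of the vessel wall, and those of microglia did not. The leptomeninges are the inner coverings of the brain. Of the genes that the study listed as changed in the female libraries, 20 were grouped here as leptomeningeal markers. All 20 were higher over both sexes (median 0.98, 0 called), which is not independent evidence. Lum had 0.69 (standard error 0.16), Bgn 0.57 (0.14) and Col1a1 1.01 (0.26). Of leptomeningeal markers outside the choice of the study 14 of 14 tested were higher (median 0.46, 8 at an unadjusted p under 0.05), and Omd rose by 1.08 (standard error 0.23, adjusted p = 0.0421), Tbx18 being at 0.76 (0.20) and Slc47a1 at 1.90 (0.66). The call for Omd was lost with consecutive libraries as a random effect in limma-voom (1.03, adjusted p = 0.343). Red cell genes were higher in 8 of 8 (median 1.00, 0 called), with Ahsp at 1.54 (0.42), Slc4a1 at 1.27 (0.42) and Alas2 at 1.03 (0.35). The study chose 6 of these 8 (Hbb, Hbb-b1, Hba1, Hba2, Alas2 and Slc4a1) among its changed genes from the female libraries used here, as it did Cxcl12, Mgp, Vwf, Vtn and Mrc1, so the direction of these genes is not independent evidence.

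Of the macrophages at the brain's borders 4 of 4 genes were higher (median 0.61) and the hyaluronan receptor Lyve1 rose by 0.53 (standard error 0.11, adjusted p = 0.0376), with Mrc1 at 0.62 (0.20) and F13a1 at 0.59 (0.25). The call for Lyve1 was lost with the same random effect (0.55, adjusted p = 0.217). Microglial genes were higher in 8 of 10 (median 0.13, 0 called), with Aif1 at 0.21 (0.09) and Csf1r at 0.15 (0.07). Of 6 listed platelet markers 2 had rows in the tables, at a summed level of at most 1.22 CPM, and the others were not analysed here.

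**Figure D3:**
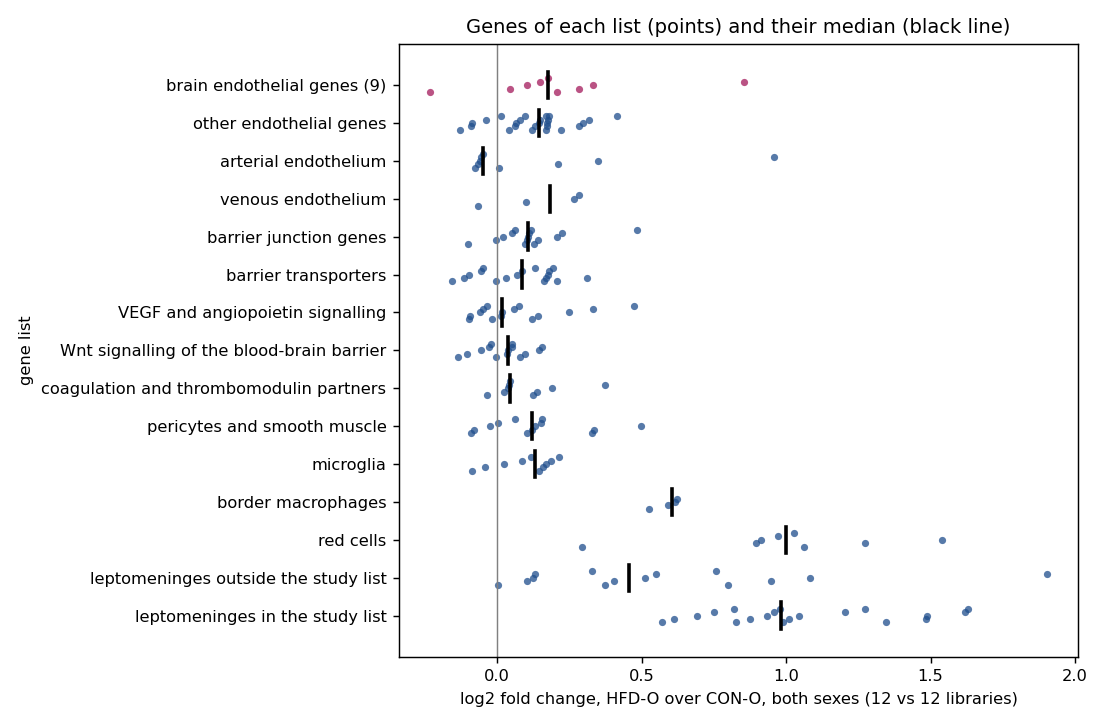
Log2 fold change of HFD-O over CON-O, both sexes (horizontal axis), of every tested gene in each list (points), with the median of the list as a black line. The 9 brain endothelial genes have a median of 0.18 and the other endothelial genes 0.15, below red cells at 1.00. The leptomeningeal markers among the changed genes of the study, a grouping made here, are at 0.98.

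Thbd followed the leptomeningeal markers rather than the other endothelial genes. A leptomeningeal score was taken for each library as the mean log2(CPM + 1) of the 14 markers outside the choice of the study. With values centred within the 4 groups, Thbd correlated with this score at Pearson r = 0.92 (permutation p = 1e-05, the smallest the permutations can give, adjusted p = 0.000360 over 36 correlations of genes with scores, n = 24) and Spearman rho = 0.91 (permutation p = 1e-05). Within females r was 0.85 and within males 0.96, and without the 2 libraries farthest from the median score r was 0.87. With the score of the 25 other endothelial genes Thbd had r = -0.28 (permutation p = 0.195) and rho = -0.29 (permutation p = 0.166).

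The score exceeded 3, a cut chosen after the data were seen, in 8 libraries: 4 female HFD-O, 3 male HFD-O and 1 male CON-O. In those 8 libraries Thbd lay between 8.54 and 21.8 CPM, and in the other 16 between 3.06 and 6.74 CPM, so the ranges did not meet. Given the correlation above and a cut chosen this way, the split is not separate evidence. Among the 16 libraries of lower score, Thbd in female HFD-O 16 and HFD-O 20 was 5.66 and 5.54 CPM, inside the range of the 6 female CON-O libraries. Ranges of the other 8 genes overlapped between the 8 and the 16 libraries. For Cdh5 they were 17.0 to 25.6 and 9.58 to 21.5 CPM, and for Cldn5 99.4 to 128.0 and 96.4 to 145.4 CPM.

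With the score as a covariate, the diet difference of Thbd was 0.34 in females, -0.24 in males and -0.0024 over both sexes, against 1.15, 0.57 and 0.86 without it. The difference of Cdh5 was 0.40, 0.09 and 0.21 with it. Without the 8 libraries of score above 3, a step chosen after the data were seen, Thbd stood at 0.30 in females, -0.19 in males and 0.05 over both sexes, while Abcb1a stood at 0.52, 0.27 and 0.39, Cldn5 at 0.36, 0.12 and 0.24 and Cdh5 at 0.39, 0.02 and 0.21. The count of genes higher in HFD-O was then 8 of 9 in females, 5 of 9 in males and 8 of 9 over both sexes, and no gene was called. This rests on 2 female and 3 male HFD-O libraries. Thbd also correlated with the red cell score (r = 0.56, permutation p = 0.0140, rho = 0.62, permutation p = 0.00537, within females 0.45 and within males 0.63, and 0.67 without the 2 farthest libraries). The part of these tissues in the diet difference was not tested.

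**Figure D4:**
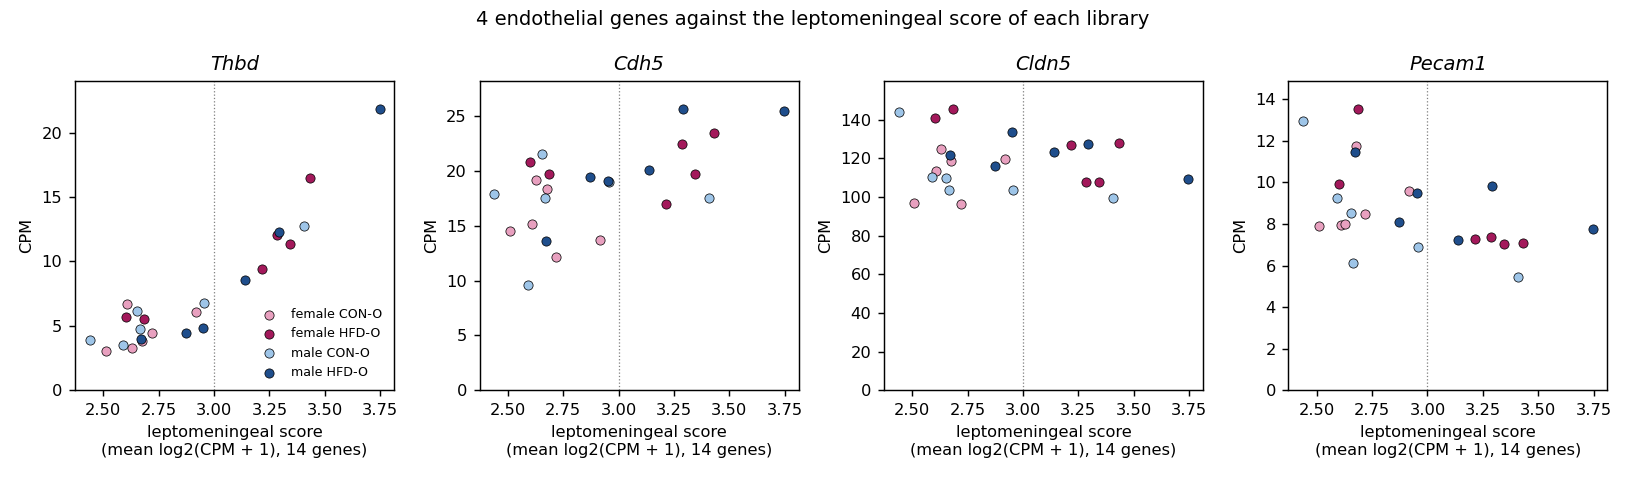
CPM (vertical axes, from 0) of Thbd, Cdh5, Cldn5 and Pecam1 against the leptomeningeal score of the library (horizontal axes, mean log2(CPM + 1) of 14 genes), 1 point per library, with a dotted line at a score of 3. Thbd climbs with the score over the 24 libraries, from 3.06 to 21.8 CPM, and Pecam1 is lower at high scores.

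Pecam1 went against the same score, with r = -0.65 (permutation p = 0.00214, adjusted p = 0.0149) and rho = -0.62 (permutation p = 0.00339), and r = -0.63 in females, -0.66 in males and -0.60 without the 2 farthest libraries. It went against red cell genes as well (r = -0.59, permutation p = 0.00587, rho = -0.64, permutation p = 0.00288, -0.67 in females, -0.54 in males and -0.57 without the 2 farthest). Cldn5 had r = -0.51 with the leptomeningeal score (permutation p = 0.0190, adjusted p = 0.0456), rho = -0.42 (permutation p = 0.0565), -0.46 in females and -0.57 in males, and -0.42 without the 2 farthest.

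The 9 genes did not vary as a block. Over 24 libraries, with values centred within groups, the 36 pairs had a median Pearson r of 0.26 (jackknife standard error 0.18), 25 of the 36 being positive, where the median over pairs of all genes was -0.0005. Without male CON-O 11 the median r was 0.09, and it was 0.20 in females alone and 0.19 in males alone. Of the 36 pairs 6 had an adjusted p under 0.05 over the 36, with Pearson r, and 0 with Spearman rho.

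The closest pair was Cdh5 and Flt1 (r = 0.75, permutation p = 0.000600, adjusted p = 0.0108, rho = 0.62, permutation p = 0.00292), with 0.58 in females, 0.85 in males and 0.54 without the 2 farthest libraries. Flt1 was also close to Abcb1a (r = 0.70, adjusted p = 0.0231, rho = 0.52, adjusted p = 0.126) and Tek (r = 0.63, adjusted p = 0.0231, rho = 0.50, adjusted p = 0.136). Cldn5 was close to Pecam1 (r = 0.72, permutation p = 0.000240, adjusted p = 0.00864, rho = 0.60, permutation p = 0.00224), with 0.63 in females, 0.82 in males and 0.62 without the 2 farthest, and to Itm2a (r = 0.65, adjusted p = 0.0294, rho = 0.53, adjusted p = 0.0805). The 2 cell junction genes Cdh5 and Cldn5 had r = 0.08 (permutation p = 0.696) and rho = 0.10 (permutation p = 0.647) with each other.

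Thbd and Abcg2 stood outside these pairs. The median r of Thbd with the other 8 genes was -0.02, its lowest being with Pecam1 (r = -0.55, adjusted p = 0.0440, rho = -0.55, adjusted p = 0.0805) and its highest with Cdh5 (r = 0.47, adjusted p = 0.185, rho = 0.47, adjusted p = 0.158). The median r of Abcg2 was -0.13. The medians of the other 7 genes ran from 0.19 (Pecam1) to 0.39 (Abcb1a).

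**Figure D5:**
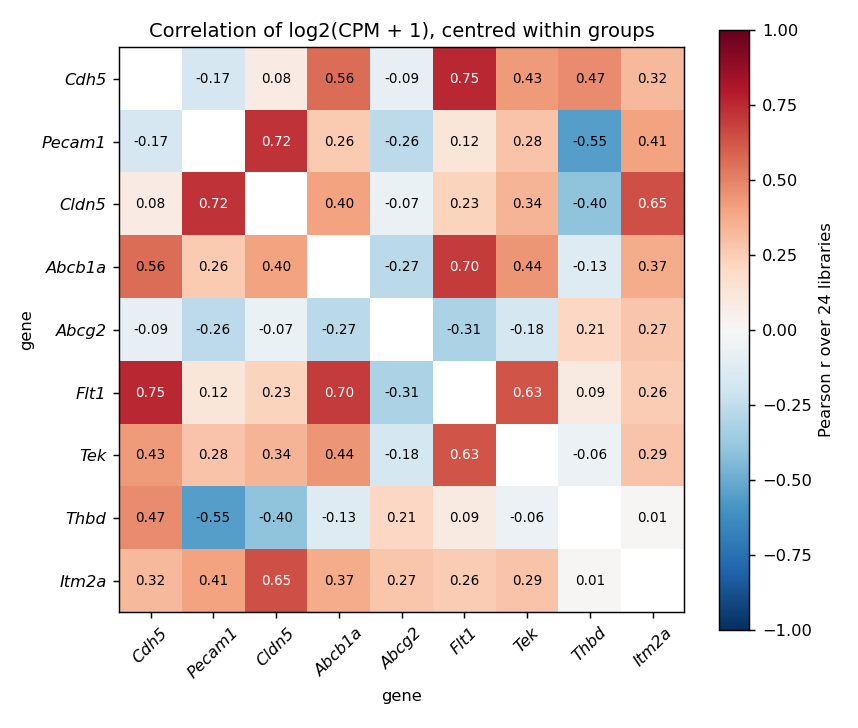
Pearson r of log2(CPM + 1), centred within groups, between each pair of the 9 genes (both axes) over 24 libraries, from blue at -1 to red at 1. Cdh5 with Flt1 (0.75) and Cldn5 with Pecam1 (0.72) are the closest pairs, and Thbd with Pecam1 (-0.55) is the most opposed.

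Against the rest of the vessel wall, 5 of the genes followed the score of the 25 other endothelial genes with an adjusted p under 0.05 by both measures. These were Cldn5 (r = 0.69, rho = 0.60), Abcb1a (0.68, 0.62), Flt1 (0.66, 0.68), Tek (0.65, 0.60) and Itm2a (0.58, 0.48). Of the 4 scores, Flt1 was closest to that of pericyte and smooth muscle genes (r = 0.75, permutation p = 0.000130, rho = 0.78, permutation p = 4.0e-05, 0.87 in females, 0.69 in males and 0.86 without the 2 farthest libraries). Cdh5 (r = 0.62, adjusted p = 0.0181, rho = 0.70, adjusted p = 0.00180), Abcb1a (r = 0.68, adjusted p = 0.0174, rho = 0.58, adjusted p = 0.0253) and Itm2a (r = 0.57, adjusted p = 0.0326, rho = 0.52, adjusted p = 0.0321) followed the same score. For Abcg2 the coefficients with the 4 scores ran from -0.18 to 0.36 for r, none with an adjusted p under 0.05.

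Spread within the groups differed between the genes. The within-group coefficient of variation was 52.9% for Thbd, where counting error alone would give 13.6%, 26.5% for Abcg2 (13.7%), 25.5% for Pecam1 (12.9%), 19.1% for Cdh5 (8.81%), 17.7% for Flt1 (7.32%) and 17.5% for Abcb1a (9.27%). It was 11.7% for Cldn5 (3.51%), 11.4% for Tek (7.81%) and 9.63% for Itm2a (3.65%).

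The genes most like each of the 9 were sought among those with a mean of at least 5 CPM, by Pearson r of group-centred log2(CPM + 1) over 24 libraries, as a description. Thbd was most like Slc6a13 (0.90), Aldh1a2 (0.89) and Gjb2 (0.89), all 3 being leptomeningeal markers among the changed genes of the study. Abcb1a was most like Ets1 (0.90), a transcription factor in the list of other endothelial genes, Cldn5 most like Apoe and Bsg (each 0.91), Tek most like Cx3cr1 (0.83) and Cdh5 most like Wasl and A2m (each 0.78). Flt1 was most like Slc6a11 (0.85), Itm2a most like Snx5 (0.84) and Pecam1 most like Vwc2 (0.84), which were in none of the lists. Abcg2 had no close neighbour, the highest being Umps at 0.70. The genes most like the mean of all 9 were Bcan (0.89), Ppap2b (0.88), Sparc (0.88), Slc38a3 (0.88), Sfxn5 (0.87), Fermt2 (0.87), Arpc1b (0.87), Sepp1 (0.87), Wwc2 (0.87) and Glud1 (0.86). None of these 10 was in any of the lists, but no list was drawn up for neurons, astrocytes or oligodendrocytes. Their log2 fold changes over both sexes ran from -0.01 to 0.20 with 0 called.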

How the data were processed

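The authors describe FastQC, Trimmomatic, Bowtie2 and edgeR, and the submitters' processing notes list FastQC, TopHat and edgeR with build rn6. How reads were assigned to genes (program, annotation, strand) and with which versions is not given in the sources used here. Per sex the authors deposited 1 table (14073 and 14077 genes) with whole-number counts per gene for 12 libraries each, and only these counts were used. A first block of 12 library columns per table, in another unit, and the authors' own columns of fold changes and p-values were not used. The files give no transcript lengths.

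Counts were analysed with edgeR 4.0.16 in R 4.3.3 (filterByExpr with minimum count 10 and total 15, TMM factors from 0.981 to 1.018, quasi-likelihood F test, Benjamini-Hochberg adjustment, threshold 0.05). Each sex was fitted alone, and 1 fit of 24 libraries gave both sexes, the interaction and the sex difference. Alternatives were the likelihood ratio test, DESeq2 1.42.0, limma 3.58.1 (voom), other size factors, no filter, score covariates, consecutive library numbers as a random effect, and each library left out. Biological coefficients of variation were 0.0951 (females), 0.100 (males) and 0.0983 (both). The fits and correlations were tested on simulated data. Counting spread limits single values (19 to 177 counts for Thbd). Correlations used log2(CPM + 1) centred within groups, with 100000 permutations within groups, in Python 3.11.15 with numpy 2.4.6. Named genes were the 9 measured symbols, up to 3 genes of smallest unadjusted p per list (1 of them is not reported here), and those most like the 9. Members and lists were chosen with earlier results of these data known. Sequences are from RefSeq (GRCr8), whose coordinates are not those of rn6.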

Additional observations from a re-analysis of the deposited data

Results flagged for a closer look

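In 4 of the 36 combinations of gene and group 1 library lay far from the other 5 by Dixon's test, where chance flags about 1 in 20 groups. All 4 were in male CON-O. Cdh5 in CON-O 3 was low at 9.58 CPM, the other 5 libraries lying between 17.5 and 21.5. Thbd in CON-O 1 was high at 12.8 CPM, and that library also had the highest leptomeningeal score of its group, 3.41 against 2.44 to 2.96 in the other 5. Itm2a and Cldn5 were high in CON-O 11, at 129.2 and 144.2 CPM, and the score of the other endothelial genes was 4.23 there against 3.81 to 4.15 in the rest of the group.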

How the results depend on the processing

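Of the values recomputed under other settings, 1152 were counted as kept. A fold change had to keep its direction and side of the threshold, and a count had to stay within 1.5 times. Mean levels had to stay within the mean SD of the groups, a loose rule, and the median r within its jackknife standard error. By that rule the median r of 0.09 without male CON-O 11 was counted as kept. The others follow, beside those of Thbd and Itm2a given in the report. The number of genes called over both sexes was 93 by the likelihood ratio test, 93 by DESeq2, 3 with the leptomeningeal score as a covariate, 3 with the red cell score, 1 with consecutive libraries as a random effect, 0 without the 8 libraries of leptomeningeal score above 3 and 3 to 46 with 1 library left out, the highest being without male CON-O 1. In females it was 50 by the likelihood ratio test, 20 by DESeq2 and 0 to 10 with 1 library left out (10 without HFD-O 20), and in males 1 by DESeq2. Between the sexes it was 2 to 5 with 1 library left out. The genes of the 9 higher in HFD-O among males were 5 without the 8 libraries. Direction turned for Pecam1 in females (0.24 with the leptomeningeal covariate, 0.23 with the red cell covariate, 0.39 without the 8 libraries, -0.21 to 0.049 with 1 library left out) and over both sexes (-0.037 to 0.13 with 1 left out). It turned for Thbd with the leptomeningeal covariate (-0.24 in males, -0.0024 over both sexes), without the 8 libraries in males (-0.19) and, between the sexes, with 1 library left out (-0.047 to 0.28). In males without the 8 libraries Itm2a was at -0.00017 and Tek at -0.046. In males 3 of the 9 genes had an unadjusted p under 0.05 without CON-O 11 and 2 with the leptomeningeal covariate, against 0, and over both sexes 3 without the 8 libraries, against 6. Between the sexes 5 of the 9 were higher in males (median 0.025), but 3 without male CON-O 11 (-0.017) and 4 without male HFD-O 23 (-0.011). The causes were not tested. The covariate and the diet overlap, since 7 of the 8 libraries are HFD-O. The groups share no replicate numbers, so no replicate block was fitted, and the random effect of consecutive libraries was the nearest fit. Counting error alone was 3.51% to 13.7% over the 9 genes, highest in Thbd, Pecam1 and Abcg2, and their spread within groups was 9.63% to 52.9%, the 2 being nearest for Tek (7.81% and 11.4%).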

Other observations

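Male CON-O 11 and CON-O 3 were the extremes of their group in several of the genes. CON-O 11 was the highest male CON-O library in Itm2a, Abcb1a, Cldn5, Pecam1, Flt1 and Tek, at 129.2, 23.4, 144.2, 13.0, 32.3 and 28.2 CPM, and CON-O 3 the lowest in Cdh5, Abcb1a, Flt1, Tek and Thbd, at 9.58, 9.43, 15.5, 19.6 and 3.50 CPM. The mean log2(CPM + 1) of the 9 genes was 4.67 in CON-O 11 and 4.19 in CON-O 3, the second being the lowest of the 24 libraries. In females the same mean was 4.22 to 4.52 in CON-O and 4.54 to 4.76 in HFD-O, and in males it was 4.19 to 4.67 and 4.41 to 4.78. This mean gives every gene equal weight, including Thbd, which the study called in these female libraries. It is given as a value with no test. The score of the 25 other endothelial genes overlapped between the diets in each sex. That score was 3.81 to 4.08 in female CON-O and 3.94 to 4.22 in female HFD-O, and 3.81 to 4.23 and 3.97 to 4.16 in males.

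Libraries with consecutive numbers, a female and a male of 1 maternal diet, had a correlation of 0.315 over all genes in the random effect fit. The labels do not say what consecutive numbers share.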
